A study of Mus musculus with 24 samples.

Results

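A set of 9 genes known from neutrophils and from inflammation were followed across cultured mouse limb buds: the stefin gene BC100530, the calgranulins S100a8 and S100a9, the cytokines Il1b and Il6, the chemokines Cxcl1, Cxcl2 and Ccl2, and the lipocalin Lcn2. They were taken by gene name, 9 of the 25844 genes in the joined count tables, and were chosen by their read counts, scaled to library size, in the dose and time groups of these same libraries, so their values are given as a description without p-values. RNA was sequenced from forelimb buds of CD1 mouse embryos of gestation day 13 grown in culture. The buds were exposed to 10 µM or 1 µM BPDP (tert-butylphenyl diphenyl phosphate, which is used to retard flames and to soften plastics) or to the solvent DMSO alone (control), and were collected after 24 or 3 h. The 6 groups had 4 libraries each, 24 in all.

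Calgranulins S100a8 and S100a9 pair into calprotectin, a calcium-binding and metal-binding protein that neutrophils store in large amounts, and stefin A proteins inhibit cysteine proteases in white blood cells and in stratified skin of the mouse. Il1b and Il6 are cytokines made during inflammation, largely under the transcription factor NF-kB. Chemokines Cxcl1 and Cxcl2 act on the receptor Cxcr2 and draw neutrophils, Ccl2 acts on Ccr2 and draws monocytes, and Lcn2 binds the iron carriers of bacteria.

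The name "neutrophil genes" was checked against 23 genes of neutrophil granules and surface, and most were nearly absent. Ly6g, the surface marker of mouse neutrophils, had 1 read over all 24 libraries. Elane and Ctsg, proteases of the primary granules, had 17 reads each, Cebpe, a transcription factor of granule formation, had 11, Retnlg 8 and Chil3 2. Of the 23 genes, 8 averaged under 1 read per library over the 24 libraries. Mmp9, a gelatinase that bone-resorbing cells also make, was the exception with 13660 reads, followed by Prtn3 (1312), Padi4 (1259) and Itgam (480). Limb tissue markers were abundant instead: the summed level of 10 mesenchyme and cartilage genes was 13362 to 17795 CPM (the gene's reads as parts per 1e6 of the library total) with 10 µM at 24 h, against 10142 to 14760 CPM in controls of that time. The 9 genes are therefore described by name, and not as a measure of neutrophils.

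Total counts ran from 14165947 to 20823058 per library, so 1 read was worth 0.0480 to 0.0706 CPM, and a library with no read of a gene allows up to 0.144 to 0.212 CPM (3 counts, counting error only). The labels do not tie replicates to separate litters or cultures, and a p-value here covers spread among libraries that may be technical. The labels do not say whether reads keep their strand, and in whole limb buds fewer cells of a type and less RNA per cell cannot be told apart. Libraries fell into a pattern by replicate number: several of the 9 genes had more reads in replicates 1 and 2 than in replicates 3 and 4 of the same group, and values are given for each pair of replicates where that touches a result.

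Upstream sequences are shown for the genes whose data follow, because stefin genes near BC100530 are described beside it, and because Cxcl1 and Cxcl2 are neighbours. They come from RefSeq on GRCm38.p6, 5′ to 3′ on the gene's own strand, and end before the transcribed part in the annotations used. BC100530 (RefSeq name Cstdc5) and its stefin neighbours Stfa3 and Csta1 lie on the minus strand of chromosome 16, at chr16:36367749-36367820, chr16:36455393-36455642 and chr16:36131242-36131439. Capitals mark the longest run of bases, 10 in all, that the 3 stretches share.

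BC100530: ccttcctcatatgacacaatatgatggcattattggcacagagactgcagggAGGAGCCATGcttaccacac
Stfa3: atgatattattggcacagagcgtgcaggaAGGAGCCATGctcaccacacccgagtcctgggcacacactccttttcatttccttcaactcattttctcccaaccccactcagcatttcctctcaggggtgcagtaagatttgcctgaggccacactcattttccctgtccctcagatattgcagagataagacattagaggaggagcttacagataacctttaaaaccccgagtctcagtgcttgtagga
Csta1: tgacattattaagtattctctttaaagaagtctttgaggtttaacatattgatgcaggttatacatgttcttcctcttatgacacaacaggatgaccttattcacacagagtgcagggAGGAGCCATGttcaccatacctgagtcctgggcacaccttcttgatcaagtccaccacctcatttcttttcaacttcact

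Over the 250 bases before their RefSeq starts, BC100530 and Stfa3 had the same base at 196 aligned positions (86.3% of the bases aligned, with 46 gap positions). BC100530 and Csta1 had it at 154 (84.6%, with 136 gap positions, so fewer bases were aligned). Of the 250 bases of BC100530, only the 72 printed above lie before the gene in the deposited tables. The 10-base run occurred in 40 of 32851 promoter windows of RefSeq (0.122%). The next stretches are those of Cxcl2 (chr5:90903749-90903870) and Cxcl1 (chr5:90891095-90891240), both on the plus strand, and capitals mark their longest shared run of 14 bases.

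Cxcl2: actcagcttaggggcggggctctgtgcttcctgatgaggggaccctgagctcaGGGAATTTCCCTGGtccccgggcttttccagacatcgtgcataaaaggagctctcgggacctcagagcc
Cxcl1: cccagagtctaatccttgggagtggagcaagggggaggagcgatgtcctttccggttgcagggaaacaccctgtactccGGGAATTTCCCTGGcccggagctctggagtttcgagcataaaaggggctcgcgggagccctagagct

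The shared run begins 97 bases before the start of Cxcl2 and 71 before that of Cxcl1, and no other promoter window held it (2 of 32851). It contains GGGAATTTCC, a match to the NF-kB motif (GGG, any 5 bases, then CC). Both genes have a further match outside the run, GGGCTTTTCC in Cxcl2 and GGGAAACACC in Cxcl1, and some matches overlap the same letters read on the other strand. The motif also had matches before BC100530, Il6, Lcn2 and Csta1, that of BC100530 and Csta1 overlapping their shared run. Searched on both strands, it occurs in 50.8% of all windows from 250 bases before to 50 after a start, so a match is a description and not a site. The C/EBP motif TTNCNNAA (40.7% of windows) was found before the RefSeq starts of BC100530, S100a8, S100a9, Il1b, Il6, Cxcl2 and Lcn2. The BC100530 match, from 88 to 81 bases before its RefSeq start, lies inside the gene in the deposited tables. The stricter ATTGCNNAA (2.18%) and the AP-1 motif TGANTCA (7.81%) were found, among the 8 of 9 genes with an entry, only before Il6.

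BC100530, a stefin A protease inhibitor, was the most abundant of the 9 genes, and the level in controls was 9.49 times higher after 24 h than after 3 h. In the 24 h controls it had 17.5, 29.2, 29.8 and 15.6 CPM (23.0 ± 7.55, SD, n = 4), against 2.77, 3.34, 1.63 and 1.96 CPM in the 3 h controls (2.43 ± 0.779). Every 24 h control library lay above every 3 h control library. The log2 fold change was 3.26 (SE 0.27), and over 15 alternative settings, among them each library left out in turn, it lay between 2.94 and 3.66.

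**Figure D1:**
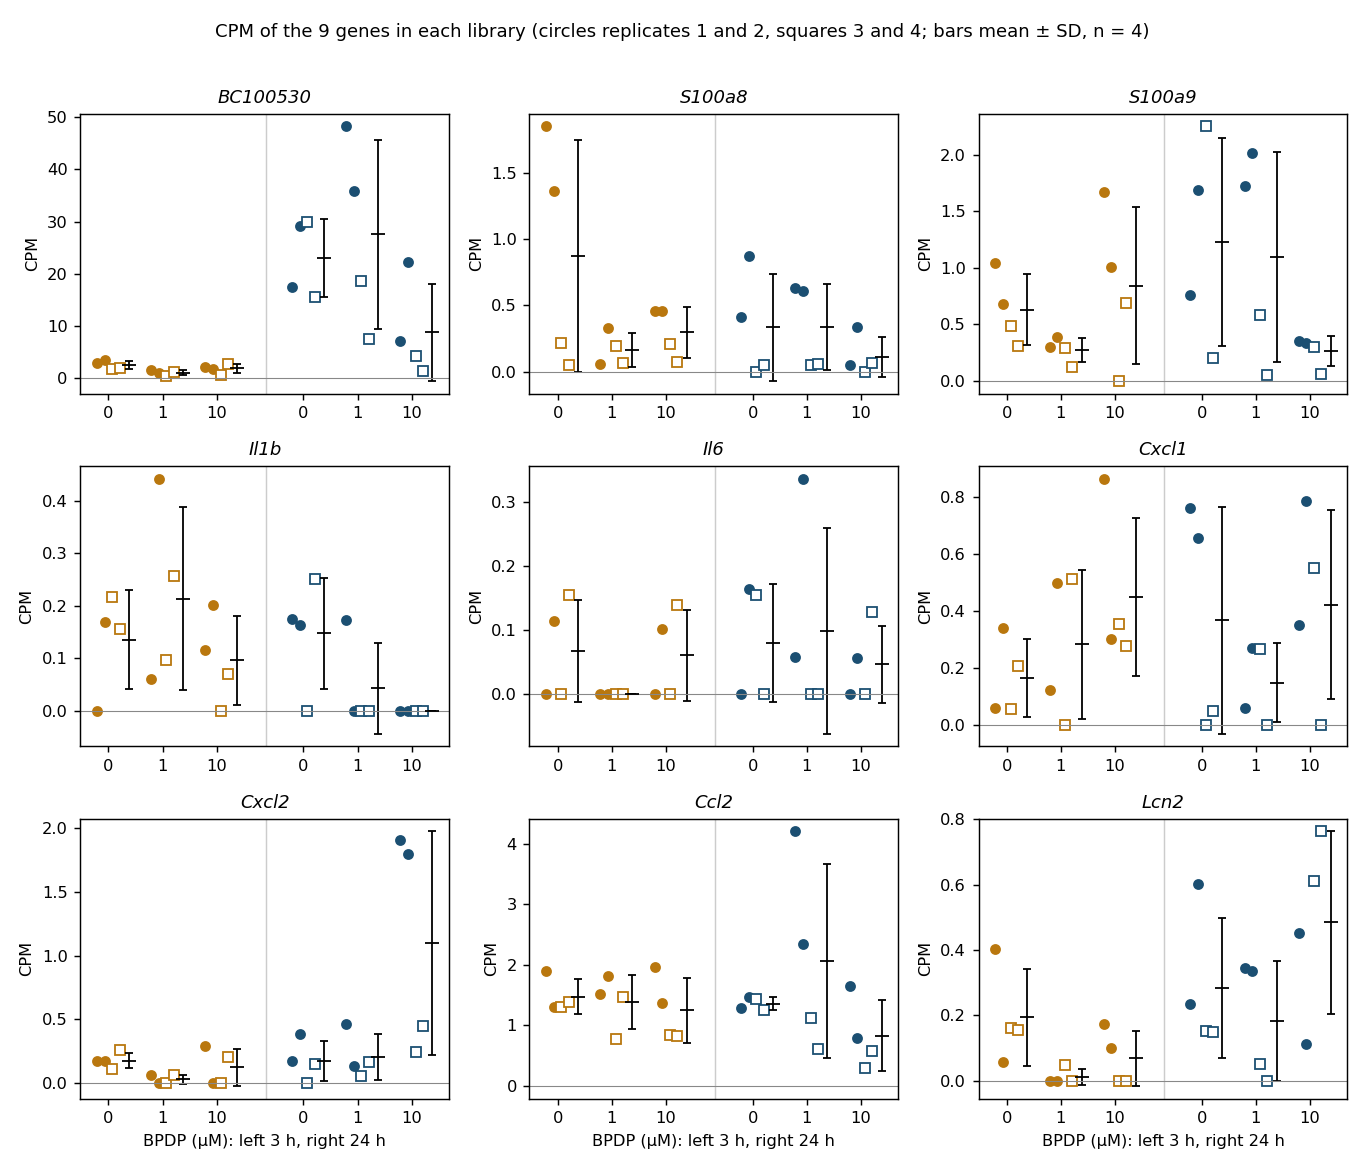
Each panel plots CPM of 1 gene (vertical axis, own scale) in every library by BPDP dose in µM, with 3 h at the left and 24 h at the right of the grey line; bars show mean ± SD (n = 4). BC100530 lies between 0.288 and 3.34 CPM at 3 h and spreads from 1.34 to 48.3 CPM at 24 h, S100a8 is mostly carried by replicates 1 and 2 (circles), and Il1b is at 0 in all 4 libraries of 10 µM at 24 h.

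At 24 h the level of BC100530 in 10 µM BPDP was 7.03, 22.3, 4.28 and 1.34 CPM (8.74 ± 9.34), against the 23.0 CPM of the controls. Replicate 2 of the treated group lay inside the control range and replicates 1, 3 and 4 lay below it, so the groups overlapped. The log2 fold change was -1.38 (SE 0.76), and -1.81 (SE 0.68) with replicate number as a block. Among replicates 3 and 4 the treated mean was 0.124 times that of the controls with no overlap, and among replicates 1 and 2 it was 0.628 times with overlap.

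In 1 µM BPDP at 24 h, BC100530 had 48.3, 35.9, 18.5 and 7.39 CPM (27.5 ± 18.1), a wider range than the controls and around the same mean. The log2 fold change of 0.26 (SE 0.58) took both signs among the alternatives, from -0.89 within replicates 3 and 4 to 0.90 within replicates 1 and 2, and it was -0.17 without 1 µM replicate 1. At 3 h all groups were low. It had 1.51, 0.939, 0.288 and 1.22 CPM in 1 µM BPDP, every value below the lowest control (1.63 CPM), with a log2 fold change of -1.29 (SE 0.43). In 10 µM BPDP at 3 h it had 2.19, 1.77, 0.635 and 2.64 CPM, overlapping the controls.

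Part of the BC100530 count could come from its relatives. Of its 50-base stretches, 25.1% also occur in BC117090, Csta1 or Stfa1, and 9.49% of its 100-base stretches in BC117090 or Stfa1. The antisense gene Gm15845, which overlaps it, had 23 reads in all libraries together. The gene lies at chr16:36359382-36367748 in the deposited tables (mm10, minus strand), among 9 further stefin A genes and related loci on the same chromosome.

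Other stefin genes also rose over time. Of 9 stefin genes measured beside BC100530, 4 were tested, and 3 rose in the 24 h controls over the 3 h controls, with a median log2 fold change of 2.58 over the 4 against 0.01 over all genes tested. Stfa3 rose by 3.31 (SE 0.33, edgeR quasi-likelihood with Benjamini-Hochberg adjusted p = 0.000253), with 13.9, 30.0, 38.3 and 21.5 CPM in the 24 h controls against 2.54, 4.14, 2.01 and 1.96 CPM in the 3 h controls. BC117090 rose by 3.15 (SE 0.68, adjusted p = 0.0124) and Csta1 by 2.001 (SE 0.40, adjusted p = 0.00667). Cstb, the stefin B made by most cells, had 60.4 ± 6.74 against 54.4 ± 2.15 CPM (log2 fold change 0.17, SE 0.12, adjusted p = 0.394).

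**Figure D2:**
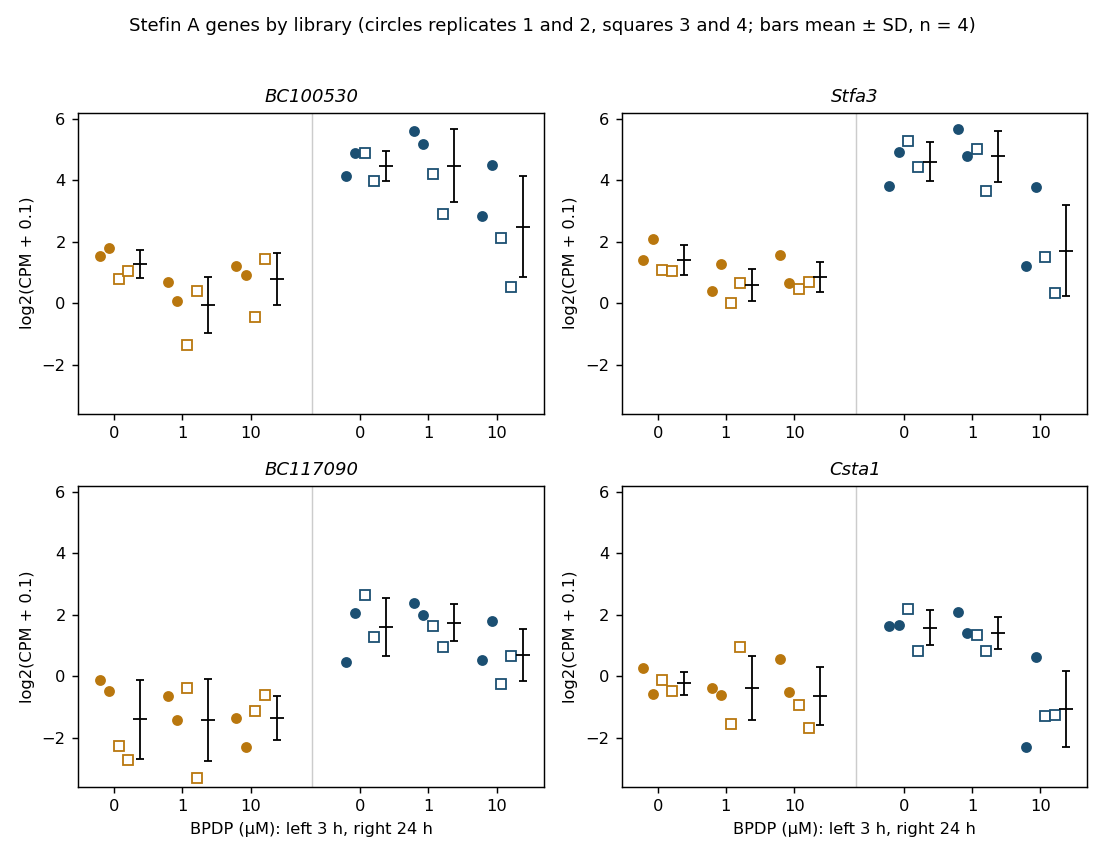
The 4 panels plot log2(CPM + 0.1) of stefin A genes in every library by BPDP dose in µM, 3 h at the left and 24 h at the right; circles are replicates 1 and 2, squares 3 and 4, and bars mean ± SD (n = 4). All 4 genes are higher at 24 h than at 3 h in controls, and for Stfa3 and Csta1 the 4 libraries of 10 µM at 24 h lie below every control of that time.

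With 10 µM BPDP at 24 h, Csta1 was the stefin gene called lower in edgeR, by 2.47 on the log2 scale (SE 0.63, adjusted p = 0.0375, and 0.00918 with the block). It had 0.1005, 1.46, 0.305 and 0.318 CPM in treated buds, against 3.04, 3.06, 4.50 and 1.65 CPM in controls. The call was lost when control replicates 1, 2 or 3 or treated replicates 1, 3 or 4 were left out. Stfa3 had 2.21, 13.8, 2.75 and 1.14 CPM, all below the lowest control (13.9 CPM), but did not pass in edgeR (log2 fold change -2.37, SE 0.79, adjusted p = 0.158). DESeq2 called both Csta1 and Stfa3. The treated mean of Stfa3 was 0.364 times that of the controls among replicates 1 and 2, and 0.0651 times among replicates 3 and 4. BC117090, at 1.73 ± 1.14 against 3.46 ± 2.13 CPM, passed neither in edgeR (adjusted p = 0.305) nor in DESeq2.

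The genes whose levels tracked BC100530 most closely over the 24 libraries were Stfa3 (r = 0.94), the mast cell protease Mcpt1 (0.93) and Ly6d (0.92), a surface protein of keratinocytes and B cell precursors, among 15540 genes compared. With group means removed the correlations were 0.82, 0.67 and 0.76. These are descriptions over libraries that share time and culture. The keratins Krt6a and Krt17 had r of 0.91 and 0.90, and the lysozyme gene Lyz2 also 0.91. These keratins were the highest of the epidermis and periderm markers listed. The others ran from 0.88 for Krtdap to -0.29 for Krt15, with Krt5 at 0.53 and Trp63 at 0.48.

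Markers of skin, macrophages, mast cells and vessels are given for the same comparisons as BC100530, and their part in its levels was not tested. Of 19 epidermis and periderm markers tested, 9 rose and none fell in 24 h over 3 h controls (Krt17 by 2.02, adjusted p = 0.00105; Krt6a by 2.82, adjusted p = 0.00655). Their summed level was 1939 to 4591 CPM against 1058 to 1499 CPM. Under 10 µM BPDP at 24 h it was 1070 to 1780 CPM, and 2 of 18 markers tested fell. Of 14 macrophage markers tested, 8 rose over time and 8 fell with 10 µM at 24 h. Lyz2 rose by 2.67 over time (SE 0.18, adjusted p = 5.93e-06) and fell by 1.63 with 10 µM (SE 0.18, adjusted p = 0.000404). The summed macrophage level was 76.1 to 116 CPM with 10 µM, against 198 to 270 CPM in the 24 h controls and 114 to 147 CPM in the 3 h controls. Mast cell markers showed 1 called gene in each comparison, Tpsab1 over time and Cpa3 with 10 µM. Their summed levels overlapped, at 28.7 to 54.0 CPM with 10 µM and 35.5 to 71.1 CPM in the 24 h controls. In the 3 h controls they were 37.7 to 51.0 CPM. Of 11 endothelial markers tested, 6 fell with 10 µM at 24 h (7 with the block), with a log2 fold change of -1.47 for Flt1 (adjusted p = 0.00551), and 2 fell over time. Their summed level was 213 to 254 CPM with 10 µM, against 337 to 415 CPM in the 24 h controls, and 416 to 496 CPM in the 3 h controls.

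S100a8 and S100a9, the calprotectin subunits, were scarce in every group and depended on the replicate. S100a8 had 0.0502, 0.337, 0 and 0.0636 CPM in 10 µM BPDP at 24 h, against 0.410, 0.874, 0 and 0.0501 CPM in controls of that time. The highest S100a8 levels were in the 3 h controls, at 1.85, 1.36, 0.217 and 0.0516 CPM. Over all groups replicates 1 and 2 held 130 of its reads and replicates 3 and 4 held 18, and in 4 of 6 groups both of replicates 1 and 2 exceeded both of replicates 3 and 4. In 1 µM at 24 h it averaged 0.337 ± 0.326 CPM, at 3 h 0.162 ± 0.128 CPM with 1 µM and 0.299 ± 0.192 CPM with 10 µM, all overlapping their controls.

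S100a9 had 0.352, 0.337, 0.305 and 0.0636 CPM in 10 µM BPDP at 24 h (0.264 ± 0.135), against 0.761, 1.69, 2.25 and 0.2003 CPM in controls (1.23 ± 0.920). Control replicate 4 fell within the treated range, so the groups overlapped, while control replicates 1, 2 and 3 were higher than every treated library. The gene missed the count filter in this comparison; a fit without the filter gave a log2 fold change of -2.15 (SE 0.71). S100a9 in 1 µM at 24 h had 1.73, 2.02, 0.584 and 0.0556 CPM, a range as wide as that of the controls. At 3 h it averaged 0.276 ± 0.108 CPM with 1 µM and 0.843 ± 0.694 CPM with 10 µM, against 0.629 ± 0.313 CPM in controls. The split by replicate number was 208 reads against 99. Its closest genes were Ryr3 (r = 0.74), Rasa3 (0.73) and Polr2k (0.71).

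Lcn2, the lipocalin of neutrophil granules that many epithelia also make, had 0 to 12 reads per library. It had 0.452, 0.112, 0.611 and 0.763 CPM in 10 µM BPDP at 24 h, against 0.234, 0.601, 0.154 and 0.150 CPM in controls. Treated replicates 1, 3 and 4 exceeded control replicates 1, 3 and 4, while treated replicate 2 was the lowest and control replicate 2 among the highest of all, with a log2 fold change of 0.80 (SE 0.83, no count filter). Among replicates 3 and 4 the treated mean was 4.52 times the control mean, among replicates 1 and 2 it was 0.676 times. In 1 µM at 3 h 1 read was found in 4 libraries, against 0.404, 0.0567, 0.163 and 0.155 CPM in the 3 h controls.

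Il1b was not detected in any of the 4 libraries of 10 µM BPDP at 24 h, against 3, 3, 0 and 5 reads in the controls (0.147 ± 0.105 CPM). The control rate was 3.42 times the limit of 3 reads over the treated group. That ratio leaves out the counting error of the control reads. Since control replicate 3 also had no read, the groups overlapped. In 1 µM at 24 h replicate 1 had 3 reads and the others none. At 3 h Il1b averaged 0.214 ± 0.174 CPM with 1 µM and 0.0966 ± 0.0847 CPM with 10 µM, against 0.135 ± 0.0941 CPM in controls. With at most 8 reads in a library, differences of this size were close to the limit that the depth allows.

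Il6 was the scarcest of the 9 genes, with 24 reads in all libraries and none in 14 of them. It had 0, 1, 0 and 2 reads in 10 µM BPDP at 24 h, against 0, 3, 3 and 0 in the controls, and no direction could be read at this depth. No read was found in 1 µM at 3 h, against 0, 2, 0 and 3 in the 3 h controls. The control rate was 1.63 times the limit of 3 reads, with the counting error of the control reads left out. With no read in control replicates 1 and 3 the groups overlapped. The gp130 receptor subunit Il6st, through which Il6 signals, was present at 271 ± 8.99 CPM with 10 µM at 24 h, against 229 ± 23.0 CPM in controls of that time, with groups apart and an edgeR adjusted p of 0.0738 (0.0407 with the block).

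Cxcl2, a chemokine for neutrophils, had the highest ratio of the 9 genes at 10 µM BPDP and 24 h, 6.21 times the control mean. It had 1.91, 1.798, 0.244 and 0.445 CPM in treated buds, against 0.176, 0.382, 0 and 0.150 CPM in controls. Treated replicates 1 and 2 exceeded every control, and treated replicate 3 lay below control replicate 2, so the groups overlapped. They were apart within each pair of replicates, with ratios of 6.65 among replicates 1 and 2 and 4.59 among replicates 3 and 4. The gene rested on 38, 32, 4 and 7 reads, missed the count filter, and had a log2 fold change of 2.64 (SE 0.81) without it. A further 5.84% of its 50-base stretches are shared with Cxcl3, which had 0.251, 0.337, 0 and 0.509 CPM in treated buds, against 0, 0, 0.154 and 0.0501 CPM in controls.

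In 1 µM BPDP at 24 h Cxcl2 had 0.461, 0.134, 0.0531 and 0.167 CPM, within reach of the controls. At 3 h it had 0.0605, 0, 0 and 0.0640 CPM with 1 µM, all below the lowest control (0.108 CPM), and 0.288, 0, 0 and 0.208 CPM with 10 µM, overlapping the controls. Those 3 h values are 0 to 5 reads per library.

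Cxcl1, its neighbour with the shared upstream run and another chemokine for neutrophils, had a mean near that of the controls at 10 µM and 24 h. It had 0.352, 0.787, 0.550 and 0 CPM in 10 µM BPDP at 24 h, against 0.761, 0.655, 0 and 0.0501 CPM in controls, with a log2 fold change of 0.26 (SE 1.05, no count filter). At 3 h it had 0.864, 0.303, 0.353 and 0.278 CPM with 10 µM, against 0.0578, 0.340, 0.0542 and 0.207 CPM in controls, and the ranges overlapped. In 1 µM it averaged 0.148 ± 0.140 CPM at 24 h and 0.282 ± 0.261 CPM at 3 h.

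Ccl2, the monocyte chemokine, was the most even of the 9 genes in controls, at 1.29, 1.47, 1.43 and 1.25 CPM after 24 h and 1.91, 1.30, 1.30 and 1.39 CPM after 3 h (log2 fold change -0.10, SE 0.34). With BPDP at 24 h the range was wider, at 1.66, 0.787, 0.305 and 0.572 CPM with 10 µM and 4.21, 2.35, 1.12 and 0.612 CPM with 1 µM. The log2 fold change over control was -0.68 (SE 0.48) with 10 µM and 0.60 (SE 0.51) with 1 µM, and both groups overlapped the controls. The 1 µM value ran from -0.70 to 1.28 over 15 alternatives, 2 of them of the other sign. Within replicates 1 and 2 both 1 µM libraries were above both controls (2.37 times the mean), and within replicates 3 and 4 both were below (0.643 times). Within replicates 3 and 4 both 10 µM libraries were below both controls (0.327 times the mean). At 3 h Ccl2 averaged 1.39 ± 0.445 CPM with 1 µM and 1.25 ± 0.532 CPM with 10 µM. Its closest genes were Apbb1ip (r = 0.80), Tlr1 (0.78) and Pld4 (0.77).

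**Figure D3:**
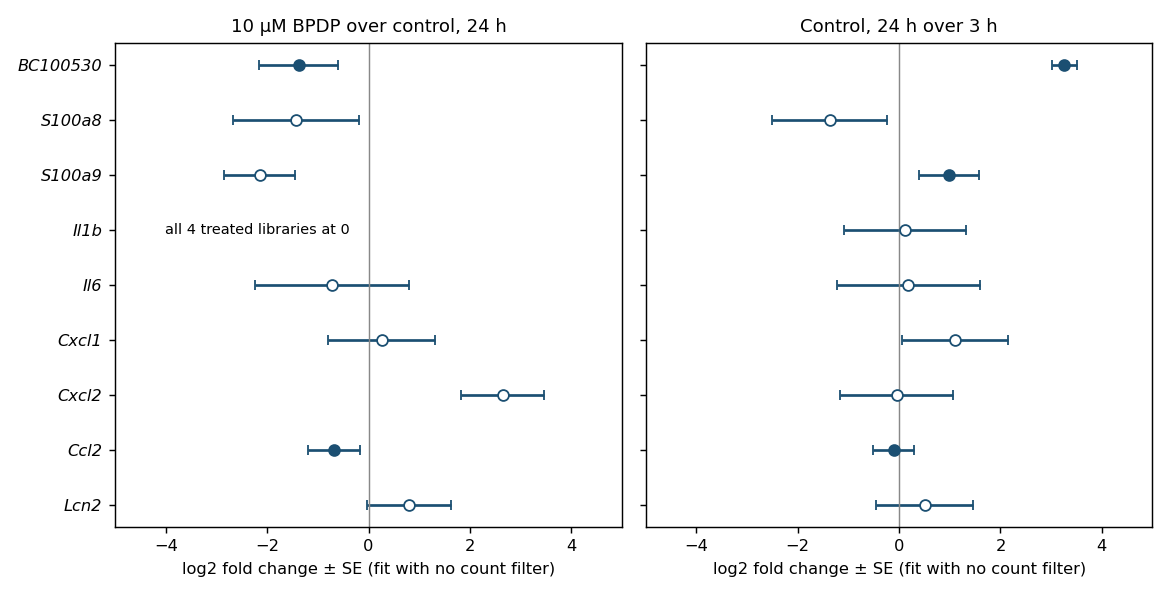
Points are log2 fold changes ± SE of the 9 genes from fits without a count filter, for 10 µM BPDP over control at 24 h (left) and for 24 h over 3 h controls (right); filled points passed the count filter, open points did not. BC100530 stands at 3.26 over time, and with 10 µM Cxcl2 is on the positive side and S100a9 and BC100530 on the negative.

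Set against each other per kilobase of transcript in the 24 h controls, BC100530 stood at 37.2 ± 12.2 RPKM (CPM per kilobase), above S100a9 at 2.36 ± 1.77 by more than their spread. Ccl2 (1.24 ± 0.0991), S100a8 (0.850 ± 1.03), Cxcl1 (0.385 ± 0.417), Lcn2 (0.207 ± 0.156), Cxcl2 (0.168 ± 0.149), Il1b (0.109 ± 0.0778) and Il6 (0.0730 ± 0.0844) followed in RPKM. No neighbours in that order below BC100530 differed by more than the sum of their SDs.

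Counted together, few of the 9 genes could be tested. With 10 µM at 24 h, 2 passed the count filter and none the test, where 6.21% of all genes tested were called, and 0 of 9 had groups that did not overlap, where 9.52% of all genes with a read did. With 1 µM at 24 h, 3 were tested and none was called (0.077% of all genes), with 0 of 9 apart (2.93%). With 10 µM at 3 h, 3 were tested and none called (0.00644%), with 0 of 9 apart (6.79%). With 1 µM at 3 h, 2 were tested and none called (0.0% of all genes), and BC100530, Cxcl2 and Lcn2 were apart and lower, where 1.16% of all genes with a read were (1.91% in either direction). Over time in controls 3 were tested and BC100530 passed, as a higher gene (5.45% of all genes were called higher, 9.55% in either direction), and it alone of the 9 was apart (4.89% of all genes with a read apart and higher, 11.2% in either direction). In the test of whether the 10 µM effect differed between 24 and 3 h, 5 were tested and none was called (2.59%). The contrasts share control libraries, and nothing about the 9 genes is read from these shares, since they were chosen with these contrasts known.

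Genes around the 9 in their pathways gave more reads. The 7 lists held 132 measured genes: neutrophil granules and surface, the stefin A family, other cytokines and chemokines, receptors and adaptors, NF-kB regulators and targets, the IL-6 and acute phase response, and the S100 family. With 10 µM BPDP at 24 h, 3 of 90 tested rose and 3 fell (6.67%, against 6.21% of all genes), and 23 were under an unadjusted p of 0.05 (25.6%, against 20.8% of all genes). With replicate number as a block 16 were called, 5 of them the same. Same-numbered libraries were positively correlated in each BPDP comparison, which does not show that the numbers mark pairs. With 10 µM the control of the same number was the closest for 3 of 4 libraries at 24 h and 2 of 4 at 3 h. With 1 µM it was the closest for 4 of 4 at 24 h and 3 of 4 at 3 h.

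**Figure D4:**
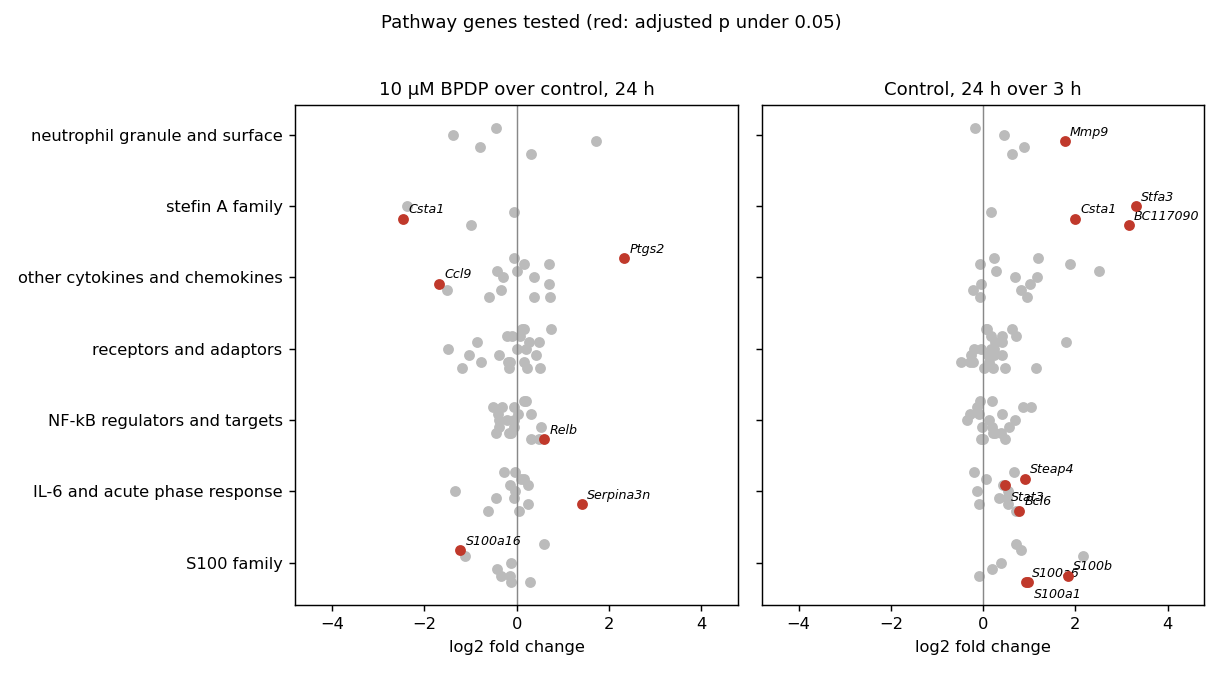
Each point is a pathway gene placed by its log2 fold change (horizontal axis) in its list (vertical axis), for 10 µM BPDP over control at 24 h (left) and 24 h over 3 h controls (right). Red points passed the test, 3 higher and 3 lower at the left and 10 higher at the right.

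Ptgs2, the inducible cyclooxygenase that makes prostaglandins, rose by 2.34 with 10 µM at 24 h (SE 0.56, edgeR adjusted p = 0.0371). It had 11.5, 8.15, 3.54 and 4.71 CPM in treated buds, against 0.702, 3.39, 0.461 and 1.15 CPM in controls, with every treated library above every control. Serpina3n, a protease inhibitor of the acute phase, rose by 1.41 (SE 0.36, adjusted p = 0.0353), and Relb, an NF-kB subunit of the non-canonical pathway, by 0.60 (SE 0.13, adjusted p = 0.0161). Relb lost its call when treated replicate 1 or 2 was left out, and Ptgs2 and Serpina3n when control replicate 1, 3 or 4 or treated replicate 1, 2 or 4 was.

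The chemokine Ccl9 fell by 1.69 (SE 0.34, edgeR adjusted p = 0.0109), with 0.703, 1.52, 1.10 and 0.827 CPM in treated buds against 3.22, 4.48, 2.92 and 3.00 CPM in controls, and stayed called with any library left out. S100a16, a calcium-binding relative of the calgranulins, fell by 1.22 (SE 0.28, adjusted p = 0.0408; 0.0554 with the block). It was no longer called without control replicate 1 or any 1 of the 4 treated libraries. Of 23 receptors and adaptors tested none was called in edgeR without the block, and 2 were called higher with it, Il6st and Il1rap (adjusted p = 0.0464). DESeq2 called both and Tlr2. The Lcn2 receptor Slc22a17 had 128 ± 20.3 against 130 ± 37.1 CPM. In the NF-kB list, Relb was the single called gene of 20 in edgeR without the block. The block in edgeR also called Icam1 (adjusted p = 0.0463) and Vcam1 (adjusted p = 0.0455), both higher. DESeq2 called Relb, Nfkb2 and Vcam1. Rela stood at 77.5 ± 4.83 against 70.0 ± 4.71 CPM and Vcam1 at 95.1 ± 8.30 against 78.0 ± 8.67 CPM.

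Mmp9 had the most reads of the neutrophil list, and at 24 h every 10 µM library lay above every control. Its mean was 99.7 CPM of a list sum of 107 CPM with 10 µM at 24 h, against 30.6 of 43.1 CPM in the 24 h controls, and it was 9.03 of 20.9 CPM in the 3 h controls. It had 146, 144, 53.3 and 56.2 CPM in treated buds, against 32.2, 37.6, 23.1 and 29.7 CPM in controls. The log2 fold change was 1.72 (SE 0.39, edgeR adjusted p = 0.0524), and the call was made with the block (adjusted p = 0.0254) and by DESeq2. No other of the 5 tested neutrophil genes passed without the block, which also called Padi4, as lower (adjusted p = 0.0426). Prtn3, a granule protease, had 2.20 ± 1.01 against 2.97 ± 0.707 CPM, and Csf3r, the receptor of the granulocyte growth factor, 1.34 ± 0.480 against 1.08 ± 0.825 CPM.

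Padi4, a deiminase best known from neutrophil nuclei, was split by replicate number in all 6 groups. Replicates 1 and 2 of the 6 groups held 1258 of its reads, and replicates 3 and 4 held 1. In 10 µM at 24 h it had 106, 23, 0 and 0 reads, against 244, 62, 0 and 1 in controls. S100a8 had 130 reads against 18. Other neutrophil genes leaned the same way, with 88 against 18 reads for Camp, 59 against 12 for Ltf, 73 against 19 for Ngp, 156 against 78 for Mpo and 9418 against 4242 for Mmp9. Prtn3, at 628 against 684, and Csf3r, at 215 against 214, were even. Cxcr2, at 19 against 46, Mmp8, at 17 against 31, and Cxcr1, at 10 against 18, leaned the other way.

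Over time in controls, 10 of 91 tested pathway genes rose and none fell (10.99%, against 9.55% of all genes called), and 30 were under an unadjusted p of 0.05 (33.0%, against 24.6% of all genes). Mmp9 rose by 1.77 (SE 0.18, edgeR adjusted p = 0.000128). S100b rose by 1.83 (SE 0.33, adjusted p = 0.00473), S100a1 by 0.98 (SE 0.24, adjusted p = 0.0230) and S100a6 by 0.94 (SE 0.20, adjusted p = 0.0105), while S100a11 had 153 ± 21.2 against 137 ± 23.2 CPM (adjusted p = 0.396). In the IL-6 list Steap4 rose by 0.90 (adjusted p = 0.0399), Bcl6 by 0.77 (adjusted p = 0.0232) and Stat3, the transcription factor downstream of gp130, by 0.48 (adjusted p = 0.0290). S100a1 lost its call without 4 of the 8 libraries, Bcl6 without 4, Stat3 without 6 and Steap4 without 7. Of the 14 other cytokines tested none was called in edgeR without the block, with Lif at 1.70 ± 1.27 against 0.297 ± 0.261 CPM (adjusted p = 0.0577, and 0.0476 with the block, which also called Ccl9). DESeq2 called Lif, Ccl9 and Cxcl16.

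The lower dose and the early time gave no called pathway gene in the edgeR test. With 1 µM at 24 h, 0 of 89 were called and 4 were under an unadjusted p of 0.05 (4.49%, against 5.89% of all genes), and DESeq2 called 0. With 10 µM at 3 h, 0 of 84 were called, 12 were under the unadjusted threshold (14.3%, against 15.5% of all genes), the block called Lifr and S100a10, and DESeq2 called these and Cstb. With 1 µM at 3 h, 0 of 82 were called, 3 were under the unadjusted threshold (3.66%, against 5.19%), and DESeq2 called 0. For the difference of the 10 µM effect between 24 and 3 h, 0 of 98 were called and 16 were under the unadjusted threshold (16.3%, against 14.3%), while the block called Ptgs2 and Serpina3n and DESeq2 called S100a16 and Serpina3n.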

How the data were processed

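The 24 libraries were made from mRNA caught on poly-T beads, per the labels' protocols. The submitters' processing notes name the build mm10 and, with no role given, HTSeq 0.6.1, STAR 2.5, CASAVA 1.8 and version 2 of DESeq2. The authors deposited 5 pairwise tables with raw read counts per gene and library, without normalization, beside their own log2 fold changes, which were not used for any result, and gene lengths. The 50 further columns (FPKM per library and 1 value per group) were not used. The tables were joined by gene identifier into 25844 genes; 0 counts differed between tables, and 34232 entries missing from a table were set to 0.

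CPM are counts over the library total, and RPKM divide CPM by the deposited gene length. Groups were compared in fits of 8 libraries with edgeR 4.0.16 (robust quasi-likelihood, TMM, filterByExpr with minimum count 10 and total 15) in R 4.3.3, with Benjamini-Hochberg adjustment over all genes tested and a threshold of 0.05. The difference between times was a contrast in 1 fit of 24 libraries. The step was also run on simulated data, with setting and outcome not given here. Nothing about genes with few reads, or about libraries split by replicate number, is read from that run. DESeq2 1.42.0, a replicate block, other filters and left-out libraries were alternatives.

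The 9 genes, the gene lists and the tests were chosen with earlier results of these data known. Named genes are the 9, up to 4 called genes of each list and comparison with the largest change, up to 2 of the highest CPM where none was called, and the 3 genes most like a member over libraries (Pearson r of log CPM, prior count 2) where the member averaged 10 or more reads. Krt6a, Krt17 and Lyz2 beside BC100530, and Mmp9, Stfa3, BC117090, Cstb, Prtn3, Csf3r, Padi4, Cxcl3, Lif, Il6st, Rela, Vcam1, Icam1, Il1rap, Slc22a17, Camp, Ltf, Ngp, Mpo, S100a11, Lifr and S100a10, where not called, were named after their values were seen. So were Tlr2, Nfkb2, Cxcl16, Cxcr2, Mmp8, Cxcr1, Cxcl14, Hp and Socs1, and Krtdap, Krt15, Krt5 and Trp63 beside BC100530.

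Same-numbered libraries had residual correlations of 0.140 to 0.361 (10 µM, 24 h), 0.153 to 0.343 (1 µM, 24 h), 0.106 to 0.279 (10 µM, 3 h) and 0.110 to 0.355 (1 µM, 3 h), and 0.0853 to 0.345 for controls over time. They passed 0.1 in 4 of 4 pairs for each BPDP comparison and in 3 of 4 over time, so the block was run as an alternative. It is given beside some of the results where it changed a call. Pathway genes it also called were Cxcl14, Hp, S100a10, S100a11 and Stat3 for 10 µM at 24 h, and Slc22a17, Socs1 and Vcam1 over time. Of these, DESeq2 called Cxcl14 and S100a11 for 10 µM at 24 h, and Socs1 and Vcam1 over time. Sequences are from RefSeq GRCm38.p6 and annotation from GENCODE M21. Intervals and limits cover counting error only, and for Il1b and Il6 only that of the group with no read.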

Additional observations from a re-analysis of the deposited data

Results flagged for a closer look

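Within the groups of 4 libraries, 5 of 52 gene and group combinations of the 9 genes had a library set apart from the rest of its group by more of the group's range than Dixon's critical value for 4 samples. That value flags about 1 in 20 groups of normally distributed values. Many groups here hold 0 to a few reads, so the 5 cannot be set against that rate. A group with reads in 1 library only is always flagged, as for Il1b and Lcn2 below. S100a9 was low in replicate 4 of 10 µM at 24 h, at 0.0636 CPM. Il1b was high in replicate 1 of 1 µM at 24 h, at 0.173 CPM, the single library of that group with a read of it. Cxcl1 was high in replicate 1 of 10 µM at 3 h, at 0.864 CPM. Ccl2 was high in replicate 1 of the 3 h controls, at 1.91 CPM. Lcn2 was high in replicate 3 of 1 µM at 3 h, at 0.0480 CPM, which is 1 read.

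Lyz2, the lysozyme gene given beside BC100530, had a 10 µM effect that differed between 24 and 3 h by -1.57 on the log2 scale (24 h minus 3 h, edgeR contrast over 24 libraries, adjusted p = 0.00478). In that contrast 6 of 14 macrophage markers tested, Lyz2 among them, and 5 of 11 endothelial markers were called lower. The 9 genes and the 98 pathway genes tested gave no such call in that contrast.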

How the results depend on the processing

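Of the recomputed counts of called genes, 140 stayed within 1.5 times their value and 54 did not, and the cause was not tested. With replicate number as a block, calls over all genes were 1645 against 963 for 10 µM at 24 h, 335 against 1 for 10 µM at 3 h and 2 against 0 for 1 µM at 3 h. Pathway calls with the block were 16 against 6, 2 against 0 for 10 µM at 3 h, and 2 against 0 for the difference between times. The block changed no call of the 9 genes. DESeq2 called 1574, 60, 482 and 674 genes for 10 µM at 24 h, 1 µM at 24 h (12 in edgeR), 10 µM at 3 h and the difference between times (432), and 15, 3, 18 and 2 pathway genes for 10 µM at 24 h, 10 µM at 3 h, over time (10) and the difference. A fit of all 24 libraries called 1870 genes for 10 µM at 24 h, 95 for 1 µM at 24 h, 52 for 10 µM at 3 h and 2739 over time (1494), and 13 and 19 pathway genes for 10 µM at 24 h and over time. With no filter 10 µM at 3 h gave 142 genes and 1 pathway gene. Within replicates 1 and 2, calls at 24 h were 6 for 10 µM and 0 for 1 µM, at 3 h 4 for 10 µM and 1 for 1 µM, over time 44 and for the difference 22, and 1, 2 and 1 pathway genes for 10 µM at 24 h, over time and the difference. Within replicates 3 and 4 they were 29, 48 and 2 for 1 µM at 24 h, 10 µM at 3 h and 1 µM at 3 h. Fewer libraries enter these fits.

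Leaving out each library in turn gave 491 to 1242 calls for 10 µM at 24 h (over 1.5 times fewer without control replicate 4 or any 1 of the 10 µM libraries), 7 to 12 for 1 µM at 24 h (7 without replicate 4 of either group), 1 to 11 for 10 µM at 3 h (11 without control replicate 1), 0 to 1 for 1 µM at 3 h (1 without control replicate 1), 791 to 1600 over time (791 and 834 without 3 h control replicates 3 and 4) and 332 to 537 for the difference. Pathway calls were 1 to 8 for 10 µM at 24 h (1 without treated replicate 1, 8 without control replicate 2), 6 to 13 over time (6 without 3 h control replicate 3), 0 to 2 for the difference, and 0 in the others. Scaling by TMM moved no mean CPM of the 9 genes by more than its SD. Without gene length, Ccl2 and S100a9 change places in the order over all 24 libraries. In the 24 h controls Cxcl1 (0.366 CPM) and S100a8 (0.333 CPM) change places too. Below about 10 reads a library, which holds for 6 of the 9 genes, a difference between groups rests on a few reads.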
